A study of Sus scrofa with 24 samples.

Results

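The hippocampal transcriptome of small for gestational age (SGA) piglets was compared with that of appropriate for gestational age (AGA) piglets, all fed the control (CON) formula. The members of this comparison are the 12 RNA sequencing libraries whose titles read SGA CON or AGA CON, 6 in each group, out of 24 libraries in the study. The other 12 libraries come from SGA and AGA piglets fed a hydrolyzed fat (HF) formula. The question is how birth size relates to gene expression when the formula is the same. SGA CON and AGA CON piglets were PIC Camborough by PIC 359 crossbreds, were 14 days old, and were classed by birth weight. Each SGA CON piglet has an AGA CON littermate of the same sex under the same replicate number, so the litters are numbered 1 to 6 here by replicate. Litters 1, 3 and 5 are male and litters 2, 4 and 6 are female, and litters 1 to 3 form cohort 1 and litters 4 to 6 cohort 2. All piglets of both groups took colostrum, received iron dextran and gentamicin on the farm, and were moved in steps onto a full-fat formula, with triglyceride oils as the CON fat. SGA status was assigned from birth weight alone, and the formula-fed, singly housed AGA CON piglet is the reference, not a sow-reared one.

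Oligodendrocytes wrap axons in myelin, a stack of lipid-rich membrane held together by a few very abundant proteins, which insulates the axon and speeds conduction. In the piglet, as in the human infant, much of this wrapping takes place around and after birth. Its cost in new membrane draws on fatty acid, sphingolipid and cholesterol synthesis in the same cells, and the genes of compact myelin are among the most strongly transcribed in white matter. The dissected hippocampus holds such white matter beside its neurons, astrocytes and microglia. In bulk tissue, fewer cells of a type and less RNA per cell cannot be told apart.

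Reads counted on genes ranged from 6204809 to 8723343 in the 6 AGA CON libraries and from 6017336 to 9217875 in the 6 SGA CON libraries. Expression is given as CPM, the read count scaled to a common library size, here the TMM-scaled one. Before TMM scaling, 3 counts, taken as the floor of detection in a library, correspond to 0.326 to 0.499 CPM. Markers of hippocampal neurons were present in all 12 libraries. SLC17A7, the vesicular glutamate transporter of excitatory neurons, lay between 1577 and 4956 CPM, CAMK2A between 2903 and 3819 CPM, and PROX1, a transcription factor of dentate granule cells, between 37.1 and 54.4 CPM.

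Before any comparison, 2 libraries stood apart from their own group. In AGA CON replicate 2 the median gene differed from the median of the other 5 AGA CON libraries by 0.3 on the log2 scale, against 0.168 to 0.197 in those 5, and its summed CPM of synaptic vesicle and release genes was 10601 against 19098 to 21228. In SGA CON replicate 6 the median difference was 0.283, against 0.175 to 0.218 in the other SGA CON libraries, and the same sum was 28192 against 18158 to 22606. These 2 libraries belong to litters 2 and 6, so results are also given without those litters.

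Each of 16326 genes was tested with edgeR's quasi-likelihood method, and a gene with a Benjamini-Hochberg adjusted p (FDR p) under 0.4, the study's own limit for plotting genes, was called a differentially expressed gene (DEG). The first fit held the 4 groups, sex and 5 surrogate variables, which are patterns estimated from the expression values themselves (surrogate-variable fit). The second fit held the litter in their place, so that each SGA piglet was set against its own littermate (litter-block fit). In the surrogate-variable fit 9 genes were higher in SGA CON (0.0551% of those tested) and 12 were lower (0.0735%). In the litter-block fit 62 genes were higher (0.38%) and 143 were lower (0.876%). Only 11 genes were DEGs in both fits, each in the same direction in both, and all 205 DEGs of the litter-block fit had the same sign in the surrogate-variable fit, as had 19 of the 21 DEGs of the surrogate-variable fit in the litter-block fit. At an FDR p under 0.05, 1 gene remained in each fit, which is described further on for the litter-block fit. In the surrogate-variable fit it was LOC100623670, named for this reason after its values were seen, which was 5.31, 6.02, 0, 0, 0.12 and 0 CPM in AGA CON replicates 1 to 6 and 0, 30.1, 2.08, 0, 0 and 0 CPM in SGA CON replicates 1 to 6. Most of its libraries were at or near 0, and the lower direction of the fit runs against the group means, which were higher in SGA CON through replicate 2 alone. Its log2 fold change was -3.72 (adjusted p = 0.0181) in that fit and 0.68 (adjusted p = 0.919) in the litter-block fit. At an unadjusted p under 0.05, the surrogate-variable fit held 566 lower genes (3.47%) and 510 higher genes (3.12%).

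The number of DEGs rested on single litters. In the litter-block fit, the 205 DEGs became 50 without litter 2, 80 without litter 5 and 85 without litter 6, but 365 without litter 1 and 377 without litter 4. In the surrogate-variable fit, the 21 DEGs became 102, 132 and 152 without litters 2, 4 and 6, and 12 and 10 without litters 3 and 5.

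**Figure D1:**
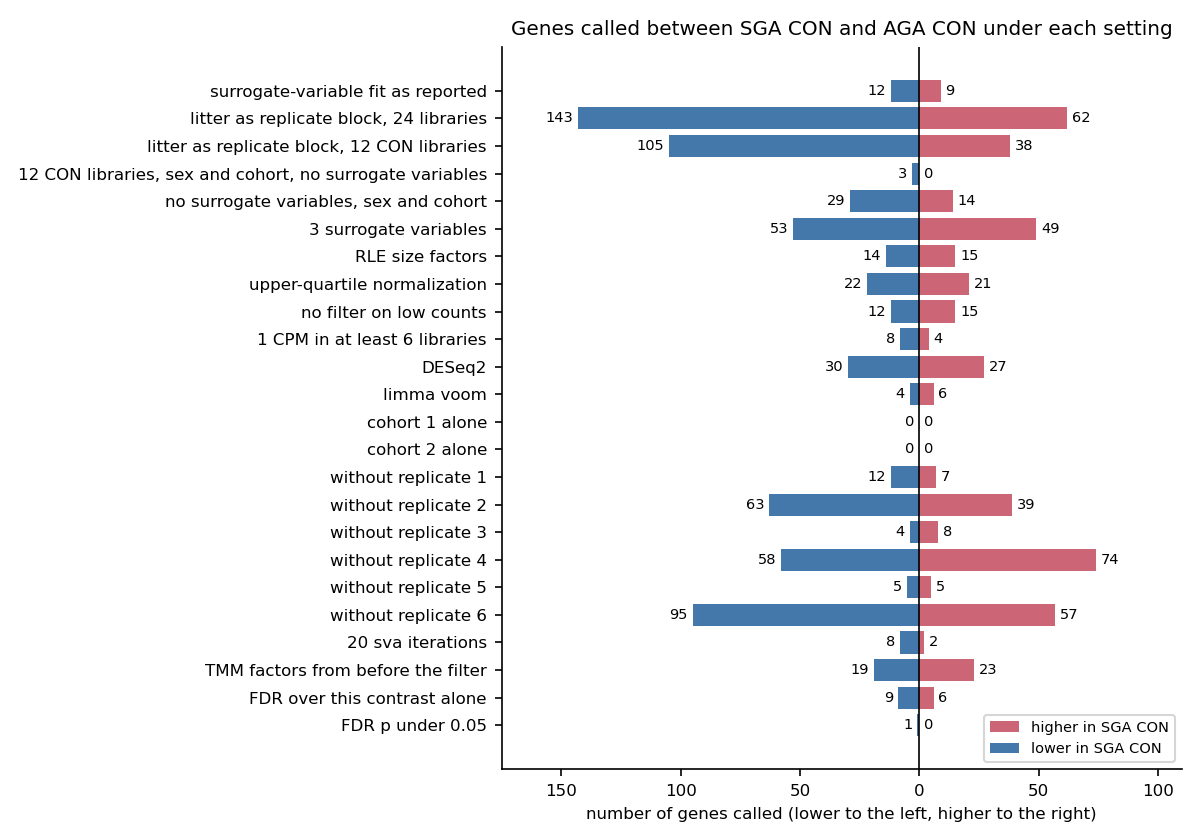
Number of genes called between SGA CON and AGA CON in the surrogate-variable fit and under each of its alternatives, with genes lower in SGA CON drawn to the left and genes higher in SGA CON to the right of 0. Among the settings drawn, both cohorts fitted alone have 0 and the litter block in 24 libraries has 205 (143 lower and 62 higher); the litter-block fits without a litter are not drawn.

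Part of the myelin list was lower in SGA CON piglets than in their littermates in the litter-block fit, and no gene of it was called in the surrogate-variable fit. Of the 26 genes of the myelin list that were tested, 12 were DEGs in the litter-block fit, all lower in SGA CON (among them CNP, OPALIN, GJB1, PLLP, MAL, MBP, MOBP, ENPP2, UGT8, ENPP6 and FA2H), where 0.876% of all genes were. The median log2 fold change of the list was -0.40 in that fit, with 24 of 26 genes below 0, against a median of 0.00 over all genes. Their median was -0.22 in the surrogate-variable fit, with 24 of 26 below 0 and 7 lower at an unadjusted p under 0.05. Without surrogate variables or litter, with sex and cohort as terms, the median was -0.39 and 3 genes were DEGs, of 43 over all genes. The list median was -0.32 in cohort 1 and -0.43 in cohort 2, and it was below 0 in each of the 6 litters, from -0.05 in litter 3 to -0.54 in litter 2. Without litter 2 the litter-block median was -0.36 and 3 genes were DEGs, of 50 over all genes. Without litter 5 there were 5, of 80 over all genes. Without litter 6 the median was -0.38 and 10 were DEGs, of 85 over all genes.

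**Figure D2:**
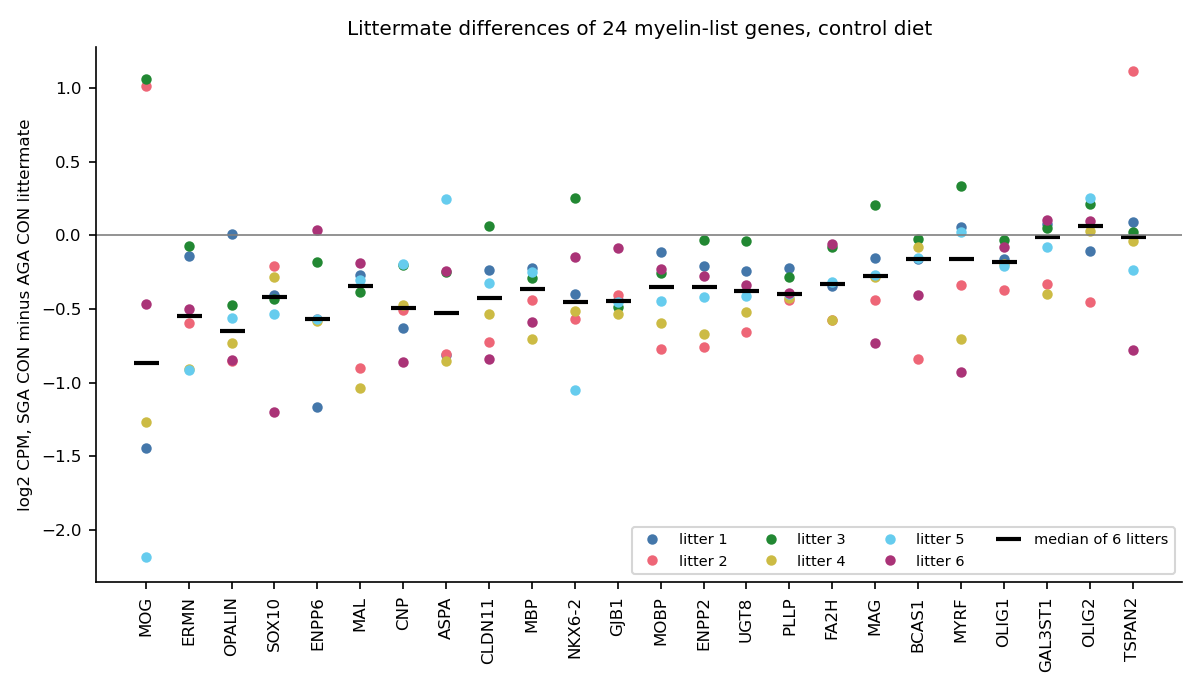
Difference in log2 CPM between the SGA CON and the AGA CON littermate for 24 of the 26 myelin-list genes, ordered by the log2 fold change of the litter-block fit, with 1 point per litter and the median of 6 litters as a black bar. Of these 24 genes, 13 lie below 0 in all 6 litters, and MOG, a low-count gene, spans the widest range.

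The structural proteins of the sheath come first. MBP, myelin basic protein, which joins the cytoplasmic faces of the membrane layers, had the highest counts per kilobase of the list and ranged from 7158 to 8944 CPM (median 7386) in AGA CON and from 4392 to 6332 CPM (median 5903) in SGA CON. The 2 groups did not overlap, as for 43 of all genes (0.263%) with SGA CON below and 17 (0.104%) with SGA CON above, and MBP was lower in SGA CON in 6 of 6 litters. Its log2 fold change was -0.42 ± 0.11 (SE, adjusted p = 0.246) in the litter-block fit and -0.20 ± 0.14 (adjusted p = 0.831) in the surrogate-variable fit. PLLP, plasmolipin, a membrane protein of myelin, was the other gene of the list whose groups did not overlap, at 603.9 to 778.8 CPM (median 743) in AGA CON and 495.9 to 593.9 CPM (median 551) in SGA CON. All 6 litters were lower, by 0.22 to 0.44 on the log2 scale, which is the narrowest spread among the 12 DEGs of the list. Its log2 fold change was -0.36 ± 0.09 (adjusted p = 0.211) in the litter-block fit.

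CNP, the cyclic nucleotide phosphodiesterase of non-compact myelin (chr12:21048293-21055830, Sscrofa10.2), had the smallest p of the list. It ranged from 1507 to 2790 CPM (median 2201) in AGA CON and from 1311 to 2434 CPM (median 1434) in SGA CON. The groups overlapped because SGA CON replicate 5 stood at 2434 CPM, yet each SGA piglet was below its littermate, including litter 5. The log2 fold change was -0.48 ± 0.09 (adjusted p = 0.0879) in the litter-block fit, where it stayed a DEG without litter 2 (adjusted p = 0.193), and -0.22 ± 0.15 (adjusted p = 0.837) in the surrogate-variable fit. OPALIN, a membrane glycoprotein of oligodendrocytes (chr14:117428249-117444403), ranged from 539.5 to 918.8 CPM (median 803) in AGA CON and from 434.4 to 621.4 CPM (median 479) in SGA CON. It was lower in 5 of 6 litters, and in litter 1 the SGA piglet was higher by 0.01 on the log2 scale. Its litter-block log2 fold change was -0.58 ± 0.12 (adjusted p = 0.125). MOBP, an abundant structural protein of central myelin, ranged from 5801 to 8481 CPM (median 6526) in AGA CON and from 4284 to 6095 CPM (median 5280) in SGA CON, lower in 6 of 6 litters, with a litter-block log2 fold change of -0.40 ± 0.10 (adjusted p = 0.263).

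The enzymes of myelin lipids and GJB1 followed the same direction. UGT8 makes galactosylceramide, the chief glycolipid of myelin, and FA2H hydroxylates its fatty acid. UGT8 fell from a median of 607 CPM (461.5 to 696.9) in AGA CON to 437 CPM (395.4 to 522.9) in SGA CON, and FA2H from 361 CPM (257.2 to 379.1) to 244 CPM (213.7 to 345.7). The groups of both genes overlapped, and both were lower in 6 of 6 litters, with litter-block log2 fold changes of -0.37 ± 0.10 (adjusted p = 0.287) for UGT8 and -0.33 ± 0.09 (adjusted p = 0.319) for FA2H. GJB1, a connexin that couples adjoining myelin layers, was lower in 6 of 6 litters. It lay between 33.8 and 58.9 CPM (median 42.4) in AGA CON and between 24.01 and 43.1 CPM (median 34.0) in SGA CON, and its log2 fold change was -0.40 ± 0.09 (adjusted p = 0.178). MAL, a proteolipid of myelin membrane, ENPP2, the lysophospholipase that makes lysophosphatidic acid, and ENPP6, a choline phosphodiesterase of newly formed oligodendrocytes, stood at -0.51 ± 0.13, -0.39 ± 0.10 and -0.51 ± 0.14 in the litter-block fit (adjusted p = 0.243, 0.27 and 0.315).

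Not every gene of the lineage moved. The transcription factors of the lineage gave no DEG. OLIG2 stood at 0.01 ± 0.11 in the litter-block fit and MYRF, which switches on the myelin genes, at -0.26 ± 0.14, while the same value for MYRF was 0.11 ± 0.15 in the surrogate-variable fit. OLIG1 was lower in 6 of 6 litters at -0.17 ± 0.07 (adjusted p = 0.53) in the litter-block fit, and SOX10, at 3.45 to 10.3 CPM over all 12 libraries, was lower in 6 of 6 litters at -0.52 ± 0.20 (adjusted p = 0.506). Over all genes tested, 470 (2.88%) were lower and 290 (1.78%) higher in SGA CON in 6 of 6 litters, and 14 of the 26 myelin genes were among the lower ones.

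Summed over the list, myelin RNA was 23371, 29017, 22322, 25159, 29522 and 28570 CPM in AGA CON replicates 1 to 6 and 20947, 18572, 20077, 16353, 24071 and 20838 CPM in SGA CON replicates 1 to 6. Each SGA piglet lay below its littermate, at 0.64 to 0.899 of the littermate's sum (median 0.772), and the groups overlapped only through SGA CON replicate 5. MBP was the most abundant gene of the sum and no gene of the list was at 0. The summed markers of other cells in the same libraries were as follows. Oligodendrocyte progenitor genes, led by OLIG1, were at 0.704 to 0.964 of the littermate's sum (median 0.94), also lower in 6 of 6 litters. Astrocyte genes, led by GFAP, were at 0.787 to 1.051 of the littermate's sum, lower in 5 of 6 litters, and microglial genes, led by LAPTM5, at 0.575 to 1.989, lower in 3 of 6. Genes of regions beside the hippocampus, led by CALB2, were at 0.964 to 1.801, lower in 2 of 6. The sum of hippocampal neuron identity genes, led by SLC17A7, went the other way, at 1.005 to 1.45 of the littermate's sum (median 1.065). It was higher in 6 of 6 litters, with 1.45 in litter 2, whose AGA CON library stood apart. Gene by gene the list was split, with 9 higher and 7 lower in the litter-block fit and no DEG. Its list median lay between 0.0008 and 0.0072 in litters 1 to 4, and was 0.19 in litter 5 and 0.36 in litter 6. The part of dissection or of cell makeup in the myelin difference was not tested.

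**Figure D3:**
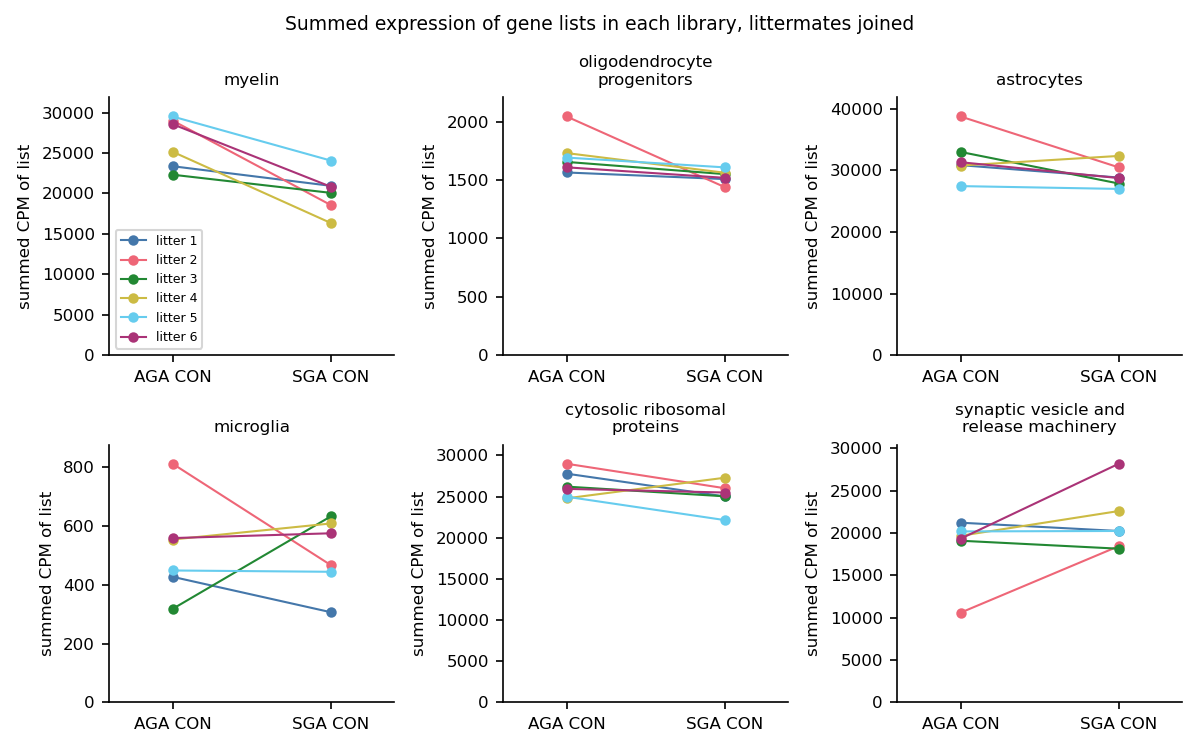
Summed CPM of the genes of 6 lists in each of the 12 CON libraries, with the AGA CON and SGA CON littermates of a litter joined by a line. All 6 myelin lines and all 6 oligodendrocyte progenitor lines slope down, whereas the microglial, astrocyte, ribosomal and synaptic lines go in both directions.

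Genes of the oligodendrocyte progenitor list, which shares OLIG1 and OLIG2 with the myelin list, gave no DEG in either fit. Their median was -0.13 in the litter-block fit, with 10 of 13 genes below 0, and -0.05 in the surrogate-variable fit. The list median was below 0 in 6 of 6 litters, but it lay between 0 and -0.05 in litters 1, 4, 5 and 6 and at -0.46 in litter 2, and without litter 2 it was -0.07. PDGFRA, the receptor that defines progenitors, is given as their marker outside the rule for named genes. It lay between 71.8 and 126 CPM in AGA CON and between 82.7 and 94.1 CPM in SGA CON, with a litter-block log2 fold change of -0.07 ± 0.09 (adjusted p = 0.887).

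Cholesterol synthesis genes, which supply the sterol of the myelin membrane among other uses, gave no DEG in either fit. In the litter-block fit 21 of 22 had a log2 fold change below 0, with a median of -0.15, and the list median was below 0 in 6 of 6 litters, from -0.04 in litter 4 to -0.28 in litter 2. In the surrogate-variable fit the median was -0.04 with 16 of 22 below 0. FDPS, the farnesyl diphosphate synthase with the highest counts per kilobase of the list, ranged from 302.8 to 444.8 CPM (median 381) in AGA CON and from 271.9 to 394.8 CPM (median 332) in SGA CON. It was lower in 5 of 6 litters, and its log2 fold change was -0.23 ± 0.07 (adjusted p = 0.416) in the litter-block fit.

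Of 24 genes of fatty acid synthesis, desaturation and elongation, 3 were DEGs in the litter-block fit and all 3 were lower, where 0.876% of all genes were. The list median was -0.05 in that fit with 14 of 24 below 0, and 0.01 in the surrogate-variable fit with 13 of 24 above 0. ELOVL7, which elongates long-chain fatty acids, ranged from 48.8 to 84.6 CPM (median 65.4) in AGA CON and from 41.0 to 54.2 CPM (median 47.4) in SGA CON, lower in 6 of 6 litters, with a log2 fold change of -0.45 ± 0.10 (adjusted p = 0.165). SCD, the stearoyl-CoA desaturase that makes monounsaturated fatty acids, had a median of 372 CPM (257.9 to 500.8) in AGA CON and 285 CPM (211.7 to 344.4) in SGA CON, also lower in 6 of 6 litters. Its log2 fold change was -0.33 ± 0.09 (adjusted p = 0.315). ELOVL1, which makes the saturated very-long-chain acids of sphingolipids, was lower in 5 of 6 litters at -0.32 ± 0.10 (adjusted p = 0.39), with SGA CON replicate 6, at 280 CPM, far above the other SGA CON libraries. FABP7, the brain fatty acid binding protein with the highest counts per kilobase of this list, stood at 0.05 ± 0.10. None of the 3 was a DEG in the surrogate-variable fit, and in the litter-block fit without litter 2 ELOVL7 stayed a DEG (adjusted p = 0.395) while SCD and ELOVL1 did not.

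The genes at the head of the litter-block fit lie mostly outside these lists. Among genes with a symbol and a mean of at least 5 CPM, the lower DEGs with the smallest p, beside CNP, were APOD, TTYH2, CMTM5, SFRP2, GAB1, ADA and SMIM5. Each was lower in 6 of 6 litters, and 160 of all 205 DEGs of this fit had 1 direction in 6 of 6 litters. A choice by the smallest p favours such agreement and groups without overlap, so neither is further support. APOD, apolipoprotein D, a lipid carrier made by oligodendrocytes and astrocytes, had a median of 457 CPM (288.5 to 562.7) in AGA CON and 310 CPM (215.0 to 432.1) in SGA CON, a log2 fold change of -0.53 ± 0.09 (adjusted p = 0.0593). CMTM5, a membrane protein of the MARVEL family that is enriched in oligodendrocytes, ranged from 71.6 to 103.4 CPM (median 88.0) in AGA CON and from 50.8 to 68.5 CPM (median 60.4) in SGA CON, so that the groups did not overlap. Its log2 fold change was -0.53 ± 0.09 (adjusted p = 0.0593). TTYH2, a membrane protein of the tweety family, stood at -0.44 ± 0.07 (adjusted p = 0.0593). SFRP2, a secreted Wnt antagonist, ranged from 265.7 to 366.2 CPM in AGA CON and from 190.5 to 263.7 CPM in SGA CON, again without overlap, at -0.42 ± 0.08 (adjusted p = 0.0879). GAB1, a receptor tyrosine kinase adaptor, ADA, adenosine deaminase, and SMIM5, a small membrane protein, had log2 fold changes of -0.40 ± 0.08, -0.53 ± 0.10 and -0.68 ± 0.13. Without litter 2, all 7 stayed DEGs, at FDR p values from 0.184 to 0.307.

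Leaving aside the DEGs of the surrogate-variable fit, such as LRRC73, which are described further on, the higher DEGs with the smallest p were PRKDC, DUSP6, AEBP1, TERT, TIAM2, AKAP2, MTMR1 and HEYL. Each was higher in SGA CON in 6 of 6 litters, which the choice by p favours here too. PRKDC, the catalytic subunit of DNA-dependent protein kinase, was 8.29, 11.0, 11.4, 11.4, 9.98 and 20.3 CPM in AGA CON replicates 1 to 6 and 9.46, 25.0, 20.7, 23.0, 20.5 and 22.7 CPM in SGA CON replicates 1 to 6. The SGA CON values fall near 20 or above except in replicate 1, and the AGA CON values near 11 or below except in replicate 6. Its log2 fold change was 0.75 ± 0.15 (adjusted p = 0.0997). DUSP6, a phosphatase of ERK that is itself induced by ERK signalling, ranged from 29.0 to 34.9 CPM (median 31.8) in AGA CON and from 36.9 to 56.2 CPM (median 43.4) in SGA CON, without overlap, at 0.47 ± 0.10 (adjusted p = 0.12). TERT, the reverse transcriptase of telomerase, ranged from 13.9 to 19.4 CPM in AGA CON and from 21.1 to 27.3 CPM in SGA CON, also without overlap, at 0.45 ± 0.11 (adjusted p = 0.182). AEBP1, a collagen-binding protein of the extracellular matrix, stood at 0.48 ± 0.10 (adjusted p = 0.132), TIAM2, an activator of the GTPase Rac, at 0.37 ± 0.09 (adjusted p = 0.196), and HEYL, a Notch target, at 0.35 ± 0.09 (adjusted p = 0.266). AKAP2, an anchoring protein of protein kinase A, and MTMR1, a phosphoinositide phosphatase, stood at 0.34 ± 0.09 and 0.30 ± 0.08. Without litter 2, PRKDC, DUSP6, AEBP1 and AKAP2 stayed DEGs, and TERT, TIAM2, MTMR1 and HEYL did not.

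The gene with the smallest FDR p of the litter-block fit has no symbol in the name table. It is the gene with Entrez identifier 100627087 (chr4:110390730-110428088, Sscrofa10.2, 20 exons), and it was picked out with its values known. It was 140, 131, 108, 122, 130 and 182 CPM in AGA CON replicates 1 to 6 and 115, 66.3, 71.9, 68.7, 71.4 and 111 CPM in SGA CON replicates 1 to 6. SGA CON was lower in 6 of 6 litters, and the groups met only through SGA CON replicates 1 and 6 and AGA CON replicate 3. The log2 fold change was -0.71 ± 0.10 (adjusted p = 0.0366) in the litter-block fit and -0.76 ± 0.16 (adjusted p = 0.224) in the surrogate-variable fit.

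The 21 DEGs of the surrogate-variable fit include 13 genes with a symbol. Lower in SGA CON were GP1BB, CLDN6, UBR4, RPL10, GAMT and RPL12. GAMT, the guanidinoacetate methyltransferase that completes creatine synthesis (chr2:77968844-77972039), ranged from 36.7 to 49.6 CPM (median 46.3) in AGA CON and from 32.4 to 38.0 CPM (median 34.6) in SGA CON. Only the lowest AGA CON library fell within the SGA CON range, and GAMT was lower in 6 of 6 litters, at -0.36 ± 0.08 (adjusted p = 0.23) in the surrogate-variable fit and -0.34 ± 0.09 (adjusted p = 0.275) in the litter-block fit. GP1BB, a platelet glycoprotein, CLDN6, a tight junction claudin, and UBR4, a ubiquitin ligase, had low counts, with single libraries at or near the floor of detection. Their SGA CON medians were 0.599, 1.06 and 1.93 CPM against AGA CON medians of 1.37, 2.06 and 2.96 CPM, with surrogate-variable log2 fold changes of -1.35 ± 0.34, -1.22 ± 0.29 and -1.17 ± 0.29. GP1BB was a DEG in both fits and was lower in 6 of 6 litters.

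Higher in SGA CON were HNRNPH1, COTL1, LRRC73, TUBA1B, KIAA1671, PDXP and DYDC1. LRRC73, a leucine-rich repeat protein, ranged from 41.4 to 87.7 CPM (median 76.2) in AGA CON and from 83.2 to 143.2 CPM (median 101) in SGA CON, higher in 5 of 6 litters, at 0.40 ± 0.07 (adjusted p = 0.161) in the surrogate-variable fit and 0.55 ± 0.11 (adjusted p = 0.103) in the litter-block fit. Its lowest value was that of AGA CON replicate 2, and without litter 2 it stayed a DEG in both fits (adjusted p = 0.14 and 0.302). HNRNPH1, a splicing regulator, ranged from 211.3 to 280.9 CPM (median 255) in AGA CON and from 270.5 to 341.7 CPM (median 308) in SGA CON, higher in 6 of 6 litters, at 0.32 ± 0.08 (adjusted p = 0.328). COTL1, an actin-binding protein, and PDXP, pyridoxal phosphatase, were DEGs in both fits, at 0.37 ± 0.09 and 0.57 ± 0.12 in the surrogate-variable fit. TUBA1B, an alpha-tubulin with 1042 to 1887 CPM in AGA CON and 848.2 to 2405 CPM in SGA CON, was a DEG at 0.45 ± 0.10 (adjusted p = 0.311) in the surrogate-variable fit and stood at 0.19 ± 0.14 (adjusted p = 0.792) in the litter-block fit. Tubulin and ribosomal protein genes have near-identical copies, among which the deposited counting could split or drop reads.

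**Figure D4:**
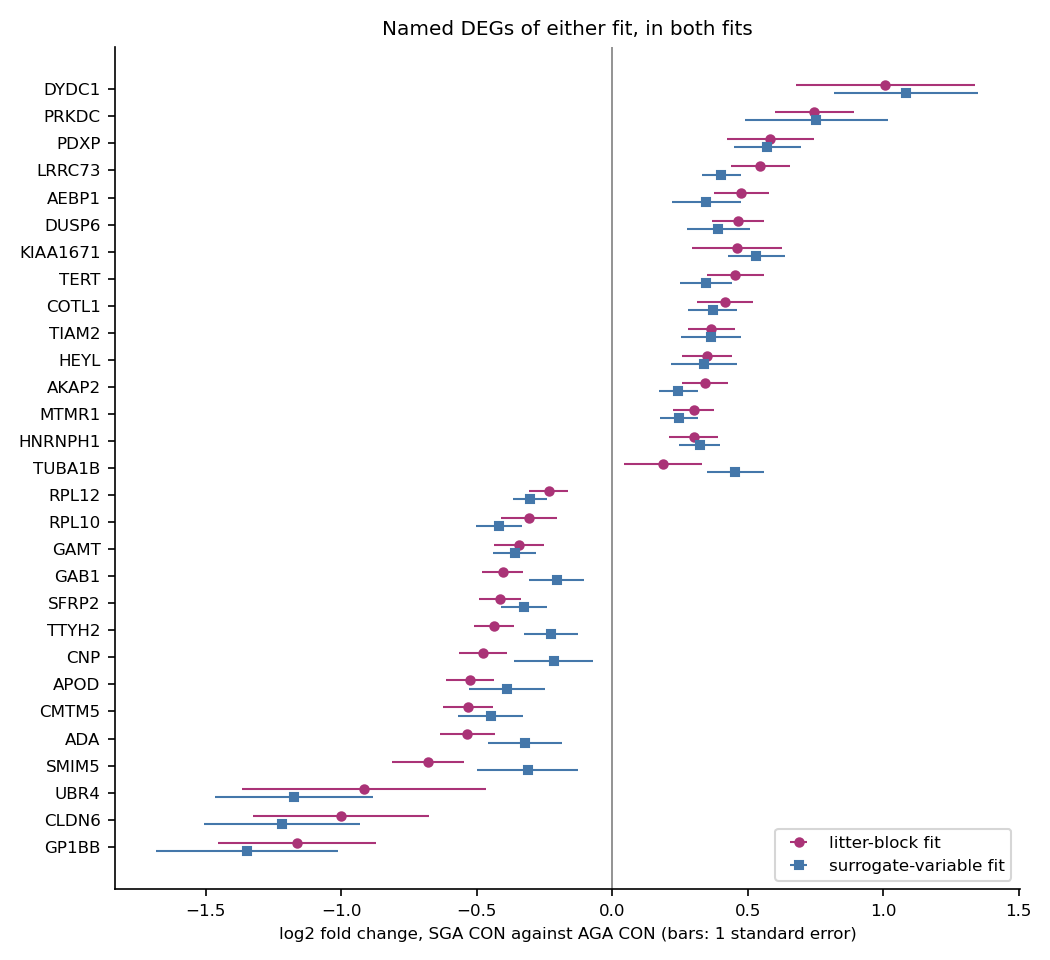
Log2 fold change of SGA CON against AGA CON with 1 standard error for 29 named genes, those that are DEGs of the surrogate-variable fit or have the smallest p among DEGs of the litter-block fit, in the litter-block fit (circles) and the surrogate-variable fit (squares). Every gene shown has the same sign in both fits, and the lower genes from GAB1 to SMIM5 lie farther from 0 in the litter-block fit.

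Cytosolic ribosomal protein genes leaned towards lower values in SGA CON. In the surrogate-variable fit 68 of 72 tested genes had a log2 fold change below 0, with a median of -0.13, and 25 were lower at an unadjusted p under 0.05, where 3.47% of all genes were. RPL10 and RPL12, both of the large subunit, were DEGs, where 0.0735% of all genes were lower DEGs. In the litter-block fit 62 of 72 were below 0, with a median of -0.10, and RPLP1, RPL12 and RPL36A were DEGs, where 0.876% of all genes were lower DEGs. The list median was below 0 in 5 of 6 litters and 0.12 in litter 4. RPL12 ranged from 224.8 to 244.9 CPM (median 242) in AGA CON and from 171.4 to 229.4 CPM (median 201) in SGA CON, lower in 6 of 6 litters, at -0.30 ± 0.06 (adjusted p = 0.224) in the surrogate-variable fit. RPLP1, an acidic stalk protein, ranged from 542.1 to 703.7 CPM (median 600) in AGA CON and from 376.8 to 560.2 CPM (median 517) in SGA CON, at -0.29 ± 0.08 (adjusted p = 0.324) in the litter-block fit. RPS2, with the highest counts per kilobase of the list, stood at -0.21 ± 0.06 (adjusted p = 0.466) in the surrogate-variable fit. None of the 72 was a DEG in the litter-block fit without litter 2.

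The synaptic vesicle list differed most between littermates in the 2 litters that hold the libraries standing apart. Those libraries were described partly by the sum of this same list, so nothing further is read from the match. In the litter-block fit 27 of 30 synaptic vesicle and release genes had a log2 fold change above 0, with a median of 0.20, and none was a DEG in either fit. By litter, the list median was 0.73 in litter 2 and 0.38 in litter 6, and it lay between -0.06 and 0.13 in the other 4. Without litter 2 the median was 0.09, and in the surrogate-variable fit it was 0.05. RAB3A, the vesicle GTPase with the highest counts per kilobase of the list, was 1103 CPM in AGA CON replicate 2 and reached 2430 CPM in the other AGA CON libraries, against 1914 to 2806 CPM in SGA CON.

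The list of protein tyrosine phosphatases also holds PDXP, which is outside the PTPN and PTPR families. Of the 30 genes tested on this list, 3 were higher DEGs of the litter-block fit, PDXP among them, where 0.38% of all genes were. In that fit 15 of 30 lay above 0 and the median was 0.01. PTPN5, the striatal-enriched phosphatase that acts on glutamate receptors and ERK, ranged from 95.0 to 163.1 CPM (median 142) in AGA CON and from 149.1 to 283.1 CPM (median 173) in SGA CON, higher in 6 of 6 litters, at 0.44 ± 0.12 (adjusted p = 0.302). PTPN4, a non-receptor phosphatase with a PDZ domain, ranged from 34.3 to 42.3 CPM (median 38.6) in AGA CON and from 42.1 to 53.6 CPM (median 49.1) in SGA CON, higher in 6 of 6 litters, at 0.33 ± 0.10 (adjusted p = 0.37). The third was PDXP, which is known as a phosphatase of pyridoxal phosphate and of the actin regulator cofilin. PTPN5 and PTPN4 were thus the only DEGs of the PTPN and PTPR families on the list. None of the 3 was a DEG without litter 2, and without litter 6 PDXP was (adjusted p = 0.319). PTPRN, the receptor-type member with the highest counts per kilobase, stood at 0.25 ± 0.11 (adjusted p = 0.587).

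In the list of immediate early genes, which rise quickly with neuronal activity and growth factor signals, 19 of 22 genes lay above 0 in the litter-block fit with a median of 0.16, and DUSP6 was the DEG, where 0.38% of all genes were higher DEGs. The list median was 0.43 in litter 2 and 0.36 in litter 6 and lay between -0.03 and 0.16 in the other 4, and without litter 2 the litter-block median was 0.10. JUNB, the most abundant per kilobase, stood at 0.34 ± 0.12 (adjusted p = 0.461). In the list of DNA replication and mitosis, 1 of 31 genes was a DEG of the litter-block fit and lower, where 0.876% of all genes were. The list changed sign between the fits. Its median was -0.06 in the litter-block fit, with 22 of 31 below 0, and 0.04 in the surrogate-variable fit, with 20 of 31 above 0. The DEG was ANLN, the actin-binding anillin of the cleavage furrow, which is also made by myelinating oligodendrocytes, where it organises septins in the sheath. ANLN ranged from 17.8 to 35.5 CPM (median 24.4) in AGA CON and from 16.3 to 18.9 CPM (median 18.0) in SGA CON, lower in 6 of 6 litters, at -0.47 ± 0.12 (adjusted p = 0.248). It was not a DEG without litter 2 (adjusted p = 0.502).

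The astrocyte, microglial and choroid plexus lists gave no DEG in either fit. The astrocyte list had a litter-block median of -0.12, with 17 of 20 genes below 0, and -0.06 without litter 2. CLU, clusterin, its most abundant gene per kilobase, stood at -0.15 ± 0.09 (adjusted p = 0.702). The microglial list changed sign between the fits, with a median of -0.04 in the litter-block fit and 0.12 in the surrogate-variable fit, and FCER1G, its most abundant gene per kilobase, changed with it (-0.09 ± 0.17 and 0.08 ± 0.13). Of 8 choroid plexus and ependymal genes that passed the filter, 6 lay above 0 in the litter-block fit. CLDN1 and PIFO were at 0 in the CON libraries, and FOXJ1, a regulator of motile cilia, was the most abundant gene of that list. TTR, the transthyretin that marks choroid plexus, ranged from 5.04 to 43.5 CPM in AGA CON and from 4.33 to 146 CPM in SGA CON, at 1.00 ± 0.46 (adjusted p = 0.6).

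The same size comparison on the HF diet uses other piglets and other litters. The genes described here were chosen for their difference on CON, so a smaller value on HF is not by itself a difference, and the size by diet interaction, which uses the same CON libraries, tests the difference with the choice of genes still built in. Of the 143 lower DEGs of the litter-block fit, 126 had the same sign on HF and 17 were DEGs there, where 0.472% of all genes were lower DEGs, and their median log2 fold change was -0.41 on CON and -0.16 on HF. Of the 62 higher DEGs, 52 had the same sign on HF and 7 were DEGs there, where 0.417% of all genes were higher DEGs, with medians of 0.43 and 0.18. The interaction was called for 18 of these 205 genes in the litter-block fit, where 0.276% of all genes were, and since the genes were chosen on a difference that enters the interaction, nothing is read from the larger share. The myelin list had a litter-block median of -0.18 on HF, with 24 of 26 genes below 0, and CNP and ENPP2 were DEGs there. The interaction was called for none of the 26 myelin genes in either fit. Ribosomal protein genes had a median of -0.18 on HF, where 10 of 72 were lower DEGs.

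Among the genes named here, the interaction was called for 5 in the litter-block fit. PRKDC was higher in SGA piglets on CON and stood at -0.46 ± 0.15 on HF, an interaction of -1.20 ± 0.21 (adjusted p = 0.0593). The gene 100627087, lower on CON, stood at 0.17 ± 0.10 on HF, an interaction of 0.88 ± 0.14 (adjusted p = 0.0593), and it was also called in the surrogate-variable fit at 0.91 ± 0.22 (adjusted p = 0.371). SMIM5, SFRP2 and HEYL had interactions of 0.73 ± 0.18 (adjusted p = 0.238), 0.39 ± 0.11 (adjusted p = 0.319) and -0.46 ± 0.13 (adjusted p = 0.319). CLDN6 was the other gene called in the surrogate-variable fit, at 1.59 ± 0.39 (adjusted p = 0.375), with 0.378 to 2.86 CPM over the 12 CON libraries.

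**Figure D5:**
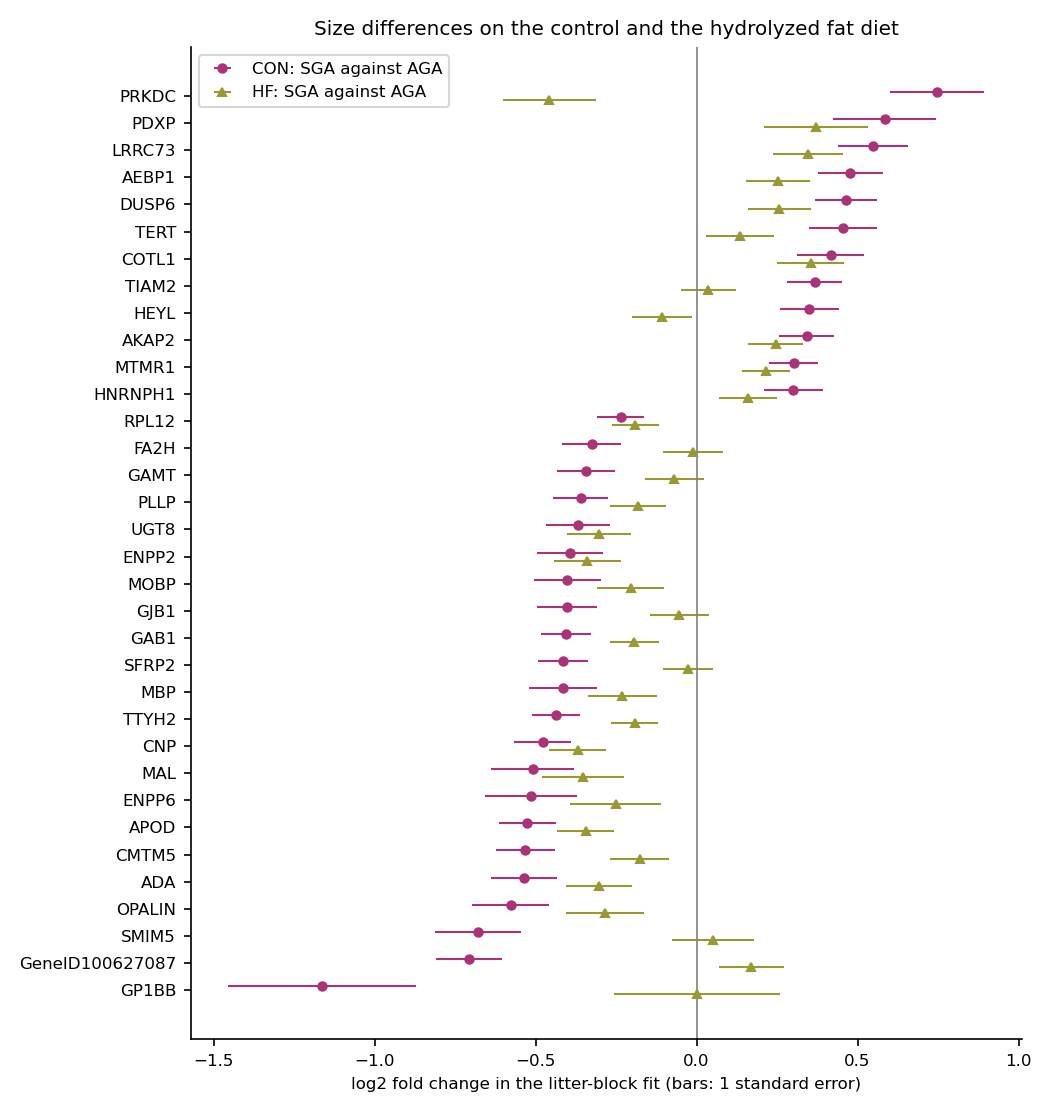
Log2 fold change of SGA against AGA with 1 standard error in the litter-block fit, on CON (circles) and on HF (triangles), for 34 DEGs of the CON comparison that are named in the text. PRKDC and HEYL lie on opposite sides of 0 on the 2 diets, as do SMIM5 and the gene 100627087, and the myelin genes lie below 0 on both.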

How the data were processed

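Hippocampal polyA RNA of 24 piglets was sequenced as stranded single-end libraries. The authors trimmed reads (Trimmomatic 0.33), aligned them to Sscrofa10.2 (STAR 2.5.2a) and deposited whole-number counts per Entrez gene (featureCounts, Subread 1.5.0, reverse strand), without filter or normalization. The files list 38882 genes, of which 23036 matched the Sscrofa11.1 name table and 15993 had a symbol. An entry without an identifier, with 0.663 to 1.61% of the CON totals, was left out. RNA quality per library was not analysed here.

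From these counts, TMM factors were computed (edgeR 4.0.16, R 4.3.3) and genes with 1 CPM in at least 3 libraries were kept. The surrogate-variable fit, the principal one, used glmQLFit and glmQLFTest on all 24 libraries with 4 groups, sex and 5 surrogate variables (sva 3.50.0), with the Benjamini-Hochberg FDR over 7 contrasts. The alternative with litter as block used 4 contrasts. Alternatives were limma 3.58.1 voom, DESeq2 1.42.0, other normalizations, filters and numbers of surrogate variables, FDR over the contrast alone, each cohort alone and each litter left out, and, chosen after seeing the data, 20 sva iterations in place of 5, TMM factors from before the filter and the litter block with each litter left out. Biological variation had a common coefficient of 0.117, and log2 fold changes had median standard errors of 0.143 (surrogate-variable fit) and 0.147 (litter-block fit). Floors cover counting error only.

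The labels say that piglets with the same replicate number on a diet are littermates, so the numbers pair the samples. Deviations of littermates from their group means correlated across genes with a mean of 0.13 (0.0144 to 0.329 over 6 pairs, 3 of them over 0.1), against 0.04 for other pairs of the same cohort and 0.113 for those of the same cohort and sex.

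Genes were named by rule. These are all DEGs of the surrogate-variable fit with a symbol, the 8 with the smallest p in each direction among litter-block DEGs of at least 5 CPM, and up to 3 DEGs and the gene with the highest counts per kilobase of each list described. The further DEGs of the myelin list, and OLIG2, MYRF and SOX10, are given outside this rule, as are the genes marked so in the text. Of 46 gene lists, 45 had at least 80% of their genes matched. Symbols held by more than 1 identifier were left out. The comparison, the lists and the rules were chosen with earlier results of these data known, and a count over a list is a description, not a test. Sequences are not used here, and a few genes are not reported here.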

Additional observations from a re-analysis of the deposited data

Results flagged for a closer look

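Groups of 6 libraries were tested for a single library far from the rest by Dixon's ratio of gap to range at the 95% level. For separate groups, chance gives about 1 in 20. These groups share the same CON libraries, so the number flagged is not set against that rate. Among 140 groups, 17 held such a library. AGA CON replicate 2 accounted for 6 of them. It was the lowest AGA CON library for LRRC73 (41.4 CPM), RAB3A (1103 CPM) and the summed synaptic vesicle genes (10601 CPM) and immediate early genes (421 CPM), and the highest for FABP7 (1100 CPM) and the summed oligodendrocyte progenitor genes (2045 CPM). SGA CON replicate 6 accounted for 5, as the highest SGA CON library for TERT (27.3 CPM), AKAP2 (181 CPM), PTPN5 (283 CPM), ELOVL1 (280 CPM) and the summed immediate early genes (733 CPM). The others were PRKDC in AGA CON replicate 6 (20.3 CPM) and SGA CON replicate 1 (9.46 CPM), CNP in SGA CON replicate 5 (2434 CPM), MBP in AGA CON replicate 6 (8944 CPM), RRM1 in AGA CON replicate 1 (43 CPM) and TTR in SGA CON replicate 1 (146 CPM).

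The size by diet interaction was called, at an FDR p under 0.4, for 6 of the named genes. Over all genes it was called for 0.276% in the litter-block fit. The named genes were mostly chosen on a CON difference that enters the interaction, so nothing is read from their number. In the litter-block fit the interaction log2 fold change was -1.2 for PRKDC, -0.46 for HEYL, 0.39 for SFRP2, 0.73 for SMIM5 and 0.88 for the gene 100627087. In the surrogate-variable fit it was 1.59 for CLDN6 and 0.91 for the gene 100627087.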

How the results depend on the processing

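The number of DEGs depended on the processing. The surrogate-variable fit gave 21 DEGs, 9 higher and 12 lower in SGA CON. With the litter as replicate block there were 205 DEGs in 24 libraries (62 higher, 143 lower) and 143 in the 12 CON libraries (38 higher, 105 lower). The 12 CON libraries with sex and cohort gave 3 (0 higher, 3 lower), no surrogate variables 43 (14 and 29), 3 surrogate variables 102 (49 and 53), upper-quartile normalization 43 (21 and 22), RLE size factors 29 (15 and 14), no filter on low counts 27 (15 and 12), 1 CPM in at least 6 libraries 12 (4 and 8), DESeq2 57 (27 and 30) and limma voom 10 (6 and 4). Fitted alone with edgeR, cohorts 1 and 2 gave 0 each, in either direction, with 655 and 964 genes at an unadjusted p under 0.05. More sva iterations gave 10 (2 and 8) and TMM factors from before the filter 42 (23 and 19). An FDR p under 0.05 left 1 (0 higher, 1 lower by the fit but with a higher SGA CON mean), and an unadjusted p under 0.05 held 1076 (510 and 566). Leaving out 1 litter gave 10 to 152 DEGs (5 to 74 higher, 4 to 95 lower) in the surrogate-variable fit and 50 to 377 (12 to 175 higher, 38 to 219 lower) in the litter-block fit, where 3 to 15 myelin genes were DEGs.

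The interaction was called for 2 of 58 named genes in the surrogate-variable fit, for 5 with the replicate block, for 1 without surrogate variables, without the filter, with DESeq2 and with limma voom, and for 0 with 1 CPM in at least 6 libraries, in cohort 1, in cohort 2 and with more sva iterations, and for 0 to 3 without a litter. Among 14 named DEGs of the surrogate-variable fit, LOC100623670 not counted, 171 of 294 alternative values kept the call, 123 lost it and 0 changed sign. With the replicate block, 2 of all 21 DEGs changed sign, LOC100623670 among them. Among 44 other named genes, 9 of 924 values changed sign. MYRF is not among these 44, and its sign also differed between the surrogate-variable fit and the litter-block fit. OLIG1 ranged from -0.13 to 0.02 without 1 replicate, with 0.02 without replicate 4, CLU was 0.04 in cohort 2, and FCER1G was -0.09 with the replicate block in 24 and in 12 libraries and in the 12 CON libraries without it, -0.12 without surrogate variables, -0.16 in cohort 1, -0.01 in cohort 2 and -0.04 to 0.13 without 1 replicate, with -0.04 without replicate 3. The cause of these differences was not tested. Depth limits the genes with libraries at or near the floor of detection, among them GP1BB, CLDN6 and UBR4.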

Other observations

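Further DEGs of the litter-block fit were picked here after their values were seen. CERS2, the ceramide synthase that makes the very-long-chain ceramides of myelin, ranged from 280.6 to 411.5 CPM in AGA CON and from 237.9 to 316.9 CPM in SGA CON. It was lower in 6 of 6 litters, at -0.42 ± 0.09 (adjusted p = 0.158), and stayed a DEG without litter 2 (adjusted p = 0.396). CD9, a tetraspanin that is present in oligodendrocytes among other cells, was lower in 6 of 6 litters at -0.57 ± 0.15 (adjusted p = 0.263), and SHMT1, a serine hydroxymethyltransferase of one-carbon metabolism, at -0.63 ± 0.15 (adjusted p = 0.178). Neither was a DEG without litter 2. RBFOX1, a neuronal splicing factor, ranged from 102.2 to 173.3 CPM in AGA CON and from 180.1 to 253.5 CPM in SGA CON. Its groups did not overlap, and its log2 fold change was 0.37 ± 0.10 (adjusted p = 0.319). VDR, the vitamin D receptor, ranged from 0.753 to 2.38 CPM in AGA CON and from 2.52 to 5.31 CPM in SGA CON, also without overlap, at 1.10 ± 0.25 (adjusted p = 0.176). Neither RBFOX1 nor VDR was a DEG without litter 2. None of these 5 genes was a DEG in the surrogate-variable fit.

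The brain endothelial and pericyte list and the glucocorticoid list gave no DEG in either fit. Brain endothelial and pericyte genes had a median of 0.01 in the litter-block fit and 0.11 in the surrogate-variable fit over 23 genes, and the 21 glucocorticoid receptor and target genes had medians of 0.14 and 0.04.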
